A study of Mus musculus with 18 samples.

Results

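Transcripts of 10 immediate-early genes were followed in 2 lung tumour lines of the mouse after the kinase DSTYK had been lowered or raised. The genes were Egr1, Fos, Fosb, Fosl1, Fosl2, Jun, Junb, Myc, Ier2 and Ier3, 10 of the 36047 genes with a listed transcript, and the rule that picks them is a list of names, drawn up with earlier results of these data known. DSTYK is a dual serine/threonine and tyrosine kinase. The 6 groups held 3 libraries each. LLC (Lewis lung carcinoma) cells, labelled lung adenocarcinoma from C57BL/6 mice, carried either the empty TPLKO vector or the same vector with the sh3 construct, both with doxycycline. UN-SCC679 cells, labelled lung squamous carcinoma from A/J mice, were given the same pair of TPLKO arms, also with doxycycline. A second UN-SCC679 experiment carried either the empty pLENTI6 vector or pLENTI6 with wild-type DSTYK (DSTYKwt), with no treatment given in the labels. Each arm rests on 1 construct, and no label ties a replicate to a culture of its own, so the p-values speak only of how far these libraries vary, possibly for technical reasons.

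Immediate-early genes are transcribed within minutes of a signal, without prior protein synthesis, largely through the ERK cascade, ternary complex factors with SRF, and CREB. EGR1 is a zinc-finger factor that binds GC-rich sites. FOS and JUN family proteins pair through leucine zippers to form AP-1, and the family members present decide which pairs can form. MYC pairs with MAX and drives genes of ribosome production and growth. IER2 is a small nuclear protein, and IER3 is a stress-induced protein that bears on cell survival and is not a DNA-binding factor. In growing tumour cells their transcripts also have a steady level, which is what single-time libraries like these measure.

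Libraries held between 40525385 and 46528071 estimated counts. Dstyk fell by 0.89 on the log2 scale in LLC sh3 cells and by 0.50 in UN-SCC679 sh3 cells, and rose by 0.29 with DSTYKwt, with no overlap between the groups of any of these comparisons. In UN-SCC679 with the empty pLENTI6 vector, replicate 1 stood apart from the other 2 libraries, with a mean chi-square per gene of 12.2 and 13.8 against them, where the highest value of the other pairs was 5.04. The defining markers of the labelled tumour types were in part absent. Nkx2-1, a lung adenocarcinoma marker, had no count in LLC with empty TPLKO. In the UN-SCC679 groups, labelled squamous, it stood at 28.3 to 42.3 TPM (abundance per transcript length, comparable between genes). The squamous keratin Krt5 lay at or below 0.03 TPM in every UN-SCC679 group, although Sox2 (28.3 to 69.6 TPM) and Pkp1 (39.5 to 73.9 TPM) were present there. Of the 10 squamous markers, 3 to 7 reached a mean of 1 TPM in a UN-SCC679 group. Epcam stayed at or below 0.09 TPM in both lines, although Krt8 (249 to 521 TPM) and Krt18 (100.1 to 430 TPM) were present in UN-SCC679. Of the 9 epithelial markers, 3 reached a mean of 1 TPM in each UN-SCC679 group. Only 1 did so in each LLC group, Krt18 at 40.6 and 41.2 TPM. Of other cell types, leukocyte markers summed to at most 7.95 TPM and endothelial markers to at most 1.81 TPM in any library, whereas fibroblast markers summed to between 1759 and 5483 TPM in UN-SCC679, mostly Col1a2 and Col3a1. In such bulk RNA, fewer cells with a transcript and less transcript per cell cannot be told apart.

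CREB and AP-1 proteins are known to act on the promoters of this family, so the bases just before the start site are shown for the 4 FOS and JUN members with a motif there. RefSeq windows on GRCm38.p6 were at hand for 6 of the 10 genes, namely Fos, Fosb, Fosl2, Jun, Junb and Ier3. Each is printed 5′ to 3′ on the gene's strand and ends at the base before the start site. Capitals mark matches, on either strand, to the core of the cyclic AMP response element (TGACG) or, in Jun, to the variant AP-1 site TGACATCA.
Fos, chr12:85473740-85473889, plus strand: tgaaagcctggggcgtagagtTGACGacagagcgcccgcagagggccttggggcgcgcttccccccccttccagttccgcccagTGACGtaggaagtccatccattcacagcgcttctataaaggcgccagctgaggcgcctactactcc
Fosb, chr7:19310046-19310195, minus strand: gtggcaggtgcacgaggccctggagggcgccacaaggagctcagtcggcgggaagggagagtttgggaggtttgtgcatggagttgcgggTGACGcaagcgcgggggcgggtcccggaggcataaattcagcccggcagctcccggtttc
Jun, chr4:95052223-95052372, minus strand: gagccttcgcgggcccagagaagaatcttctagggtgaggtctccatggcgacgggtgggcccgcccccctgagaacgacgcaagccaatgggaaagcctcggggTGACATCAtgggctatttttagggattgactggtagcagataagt
Junb, chr8:84978749-84978898, minus strand: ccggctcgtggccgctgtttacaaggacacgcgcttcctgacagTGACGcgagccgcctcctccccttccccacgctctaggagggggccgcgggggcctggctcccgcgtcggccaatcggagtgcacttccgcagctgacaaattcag
Counting back from the start site, TGACG stood at -129 and -66 in Fos, at -60 in Fosb and at -106 in Junb, and TGACATCA at -45 in Jun. Over the 250 bases before each start, TGACG was found in 17.8% of all 32851 windows and TGACATCA in 2.93%. No CArG box (in 1.47% of windows), no AP-1 site TGANTCA (6.75%) and no full element TGACGTCA (1.55%), which itself holds TGACG, lay within the 250 bases of any of the 6 genes. None of the 5 motifs was found before Fosl2 or Ier3. TGACATCA was added to the search after the windows had been seen. Bases further upstream were not searched, so the lack of a match here does not show that a gene lacks the motif. A match is a run of letters and was not tested for binding.

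The level of the 10 transcripts in TPM spanned a wide range. Myc was the most abundant in every group, from 97.5 TPM in UN-SCC679 sh3 cells to 655 TPM in LLC sh3 cells. Fos and Fosb were scarce throughout, with group means of 0.201 to 2.70 TPM and 0.183 to 4.74 TPM. Egr1 varied most between groups, 261-fold from its lowest to its highest group mean. Ier2 varied least, 2.64-fold.

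**Figure D1:**
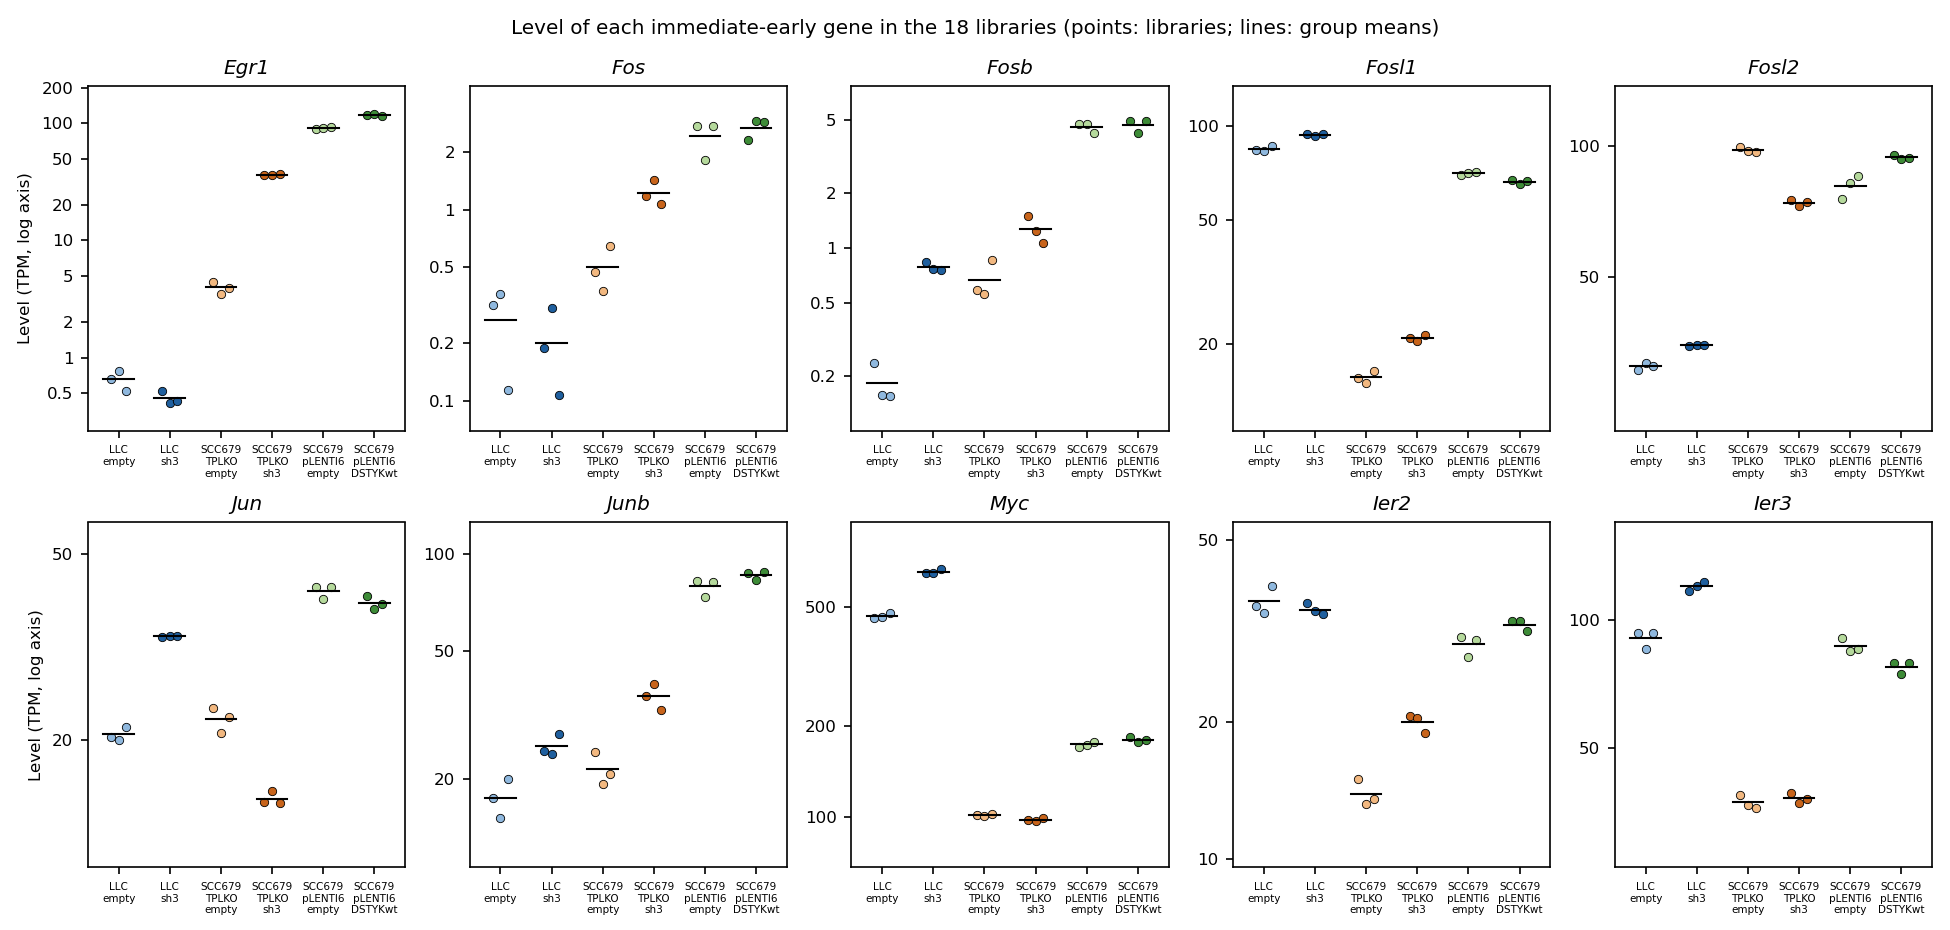
Level of each of the 10 genes in TPM on a log axis, with 1 point per library and a line at the mean of the 3 libraries of a group. Egr1 climbs from under 1 TPM in LLC to over 100 TPM in UN-SCC679 with DSTYKwt, while Fosl1, Myc and Ier3 are highest in LLC sh3 cells.

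The 2 lines differed in which of these factors they held at baseline, in the comparison of their empty TPLKO arms. LLC had more Fosl1, Myc, Ier2 and Ier3, and UN-SCC679 had more Egr1, Fos, Fosb, Fosl2 and Junb. Of the 10 genes, 4 were higher in LLC and 5 lower by edgeR's quasi-likelihood test (adjusted p under 0.05), where 40.9% of all tested genes were higher, 42% lower and 82.9% called. The libraries of the lines did not overlap for 8 of the 10, against 84.3% of all genes. Of the 10, 8 were called and differed by at least 2-fold, against 35.3% of all genes by the same 2 conditions. Fosl1, which encodes FRA-1, stood at 83.6, 83.1 and 85.8 TPM in LLC and at 15.6, 15.01 and 16.4 TPM in UN-SCC679. That is a log2 difference of 2.60 ± 0.046 (SE, n = 3 per group, edgeR adjusted p = 2.36e-13). Myc stood at 457, 463 and 477 TPM against 101, 100.1 and 102 TPM, a log2 difference of 2.18. No LLC library came near a UN-SCC679 library for either gene. Fosl2, which encodes FRA-2, went the other way, with 31.1 ± 0.589 TPM (SD, n = 3) in LLC and 97.8 ± 1.55 TPM in UN-SCC679. Egr1 was at 0.650 ± 0.126 TPM in LLC, from 40 to 57 counts a library, and at 3.98 ± 0.469 TPM in UN-SCC679. Junb (log2 difference -0.28) overlapped between the lines and lost its call without any 1 of 3 libraries, at adjusted p values of 0.0668, 0.107 and 0.121. Fos (-1.24) had 6 to 14 counts in LLC libraries and lost its call without the third of them (-0.98, adjusted p = 0.0615). Fos and Junb also lost their calls with an offset for effective length (adjusted p = 0.105 for Fos and 0.0565 for Junb) and with limma on TPM (0.0627 and 0.0747), which left 7 of the 10 called. Jun did not differ beyond its spread (-0.095, adjusted p = 0.0828) unless the second UN-SCC679 library was left out (-0.14, adjusted p = 0.0151). Whole chromosomes also differed between the lines. The median log2 difference was -0.46 over chromosome 8, relative to which Junb lay at 0.18 and Ier2 at 1.88. It was 0.55 over chromosome 17, leaving 0.74 for Ier3, 0.35 over chromosome 15 (Myc) and 0.29 over chromosome 19 (Fosl1). The part of these shifts was not tested. Lines, strains and tumours of origin cannot be told apart in this comparison, and its libraries are also the controls of the 2 knockdowns.

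Knockdown in LLC was followed by more of most of these transcripts. Of 9 tested genes, 7 rose and 2, Egr1 and Ier2, were not called in either direction by edgeR, by its unadjusted p or by DESeq2, where 36.2% of all 13767 tested genes rose and 72.6% changed. Their median log2 change was 0.42 beside 0.01 for all genes. The groups did not overlap for 8 of the 9, against 76% of all genes. Of the 9, 1 was called and changed by at least 2-fold in either direction, against 12.2% of all genes. So many genes changed in this comparison that a call alone says little, and the sizes carry the description.

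The FOS and JUN families in LLC rose at both ends of the abundance range. Fosb, which encodes a FOS paralogue, had 11, 13 and 12 counts in the empty arm and 87, 73 and 75 in the sh3 arm. In TPM this was 0.183 ± 0.046 and 0.791 ± 0.045 (SD, n = 3), a log2 change of 2.60 ± 0.271 (SE, edgeR adjusted p = 1.64e-06). The rise was 6.07-fold from a very low level, and all sh3 libraries lay above all empty ones. Jun, the main AP-1 partner of the FOS proteins, stood at 20.3, 19.99 and 21.3 TPM in the empty arm and at 33.2, 33.4 and 33.4 TPM in the sh3 arm, a log2 change of 0.71 ± 0.032. Junb, which often opposes JUN in growth control, rose from 17.5 ± 2.45 to 25.3 ± 2.05 TPM, a log2 change of 0.55. Fosl1 and Fosl2 rose by only 0.14 each on that scale, with no overlap between groups. Fos itself was not tested, since its 10, 14 and 6 counts in empty libraries and 5, 7 and 6 in sh3 libraries did not pass the filter on low counts. Its level was near the limit of counting in LLC.

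Myc in LLC was at 457, 463 and 477 TPM with the empty vector and at 649, 648 and 666 TPM with sh3. The log2 change was 0.51 ± 0.018 (SE, n = 3 per group, edgeR adjusted p = 4.46e-11). Ier3 rose from 90.8 ± 4.38 to 120 ± 2.76 TPM, a log2 change of 0.42, whereas Ier2 did not change beyond its spread (-0.045, adjusted p = 0.419). Egr1 stood at 57, 57 and 40 counts in the empty arm and at 43, 35 and 35 in the sh3 arm, a log2 difference of -0.54 ± 0.258 that was not called (adjusted p = 0.0793). Without the third empty library, which lay closest to the sh3 arm, Egr1 was called (-0.69, adjusted p = 0.0401). At these counts a change in Egr1 was not settled in LLC.

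Knockdown in UN-SCC679 changed 9 of the 10 genes, with 6 higher and 3 lower, where 31.8% of all 14271 tested genes rose, 32% fell and 63.8% changed. The groups did not overlap for 9 of the 10, against 68.2% of all genes. Of the 10, 2 were called and changed by at least 2-fold, against 10.3% of all genes. Egr1 stood far above the others. It was at 4.46, 3.52 and 3.96 TPM with the empty vector and at 36.1, 35.9 and 36.6 TPM with sh3, that is 284 to 334 counts against 2696 to 2912. The log2 change was 3.19 ± 0.062 (SE, n = 3 per group, edgeR adjusted p = 3.29e-12), a 9.12-fold rise. All sh3 libraries lay far above all empty ones. Cell type markers moved in the same comparison. Fibroblast markers were higher for 5 of 7 tested genes and lower for 1, although their sum went from 5235 to 5483 TPM down to 4677 to 4795 TPM. Squamous markers were higher for 4 of 7 and lower for 1 (median log2 change 1.60), and the epithelial sum went from 545 to 569 TPM down to 342 to 359 TPM. Their part in the changes of the 10 genes was not tested.

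The AP-1 members in UN-SCC679 split. Fos rose from 0.500 ± 0.138 to 1.23 ± 0.187 TPM (log2 change 1.09 ± 0.263, adjusted p = 0.0034), on 21 to 25 and 48 to 55 counts a library. Fosb rose from 0.673 to 1.27 TPM, a log2 change of 0.95. Fosl1 rose from 15.7 ± 0.688 to 20.9 ± 0.466 TPM, a log2 change of 0.50, while genes on chromosome 19, where it lies, had a median log2 change of 0.29. The part of that chromosome-wide shift in the rise of Fosl1 was not tested, and 0.22 remained above it. Fosl2, by contrast, fell from 97.8 ± 1.55 to 73.9 ± 1.21 TPM (-0.41). Among the JUN genes, Junb stood at 24.3, 19.3 and 20.7 TPM in the empty arm and at 36.2, 39.5 and 32.7 TPM in the sh3 arm, and Jun at 23.4, 20.7 and 22.4 against 14.7, 15.6 and 14.6 TPM. These are log2 changes of 0.76 ± 0.083 and -0.56 ± 0.049, each with no overlap. Junb rose against a median of -0.19 on its chromosome 8, and Ier2, on the same chromosome, rose by 0.52, from 13.9 to 19.9 TPM. Ier3 did not change beyond its spread (0.036, adjusted p = 0.524), with a chromosome 17 median of 0.25. Myc fell by only 0.076 (adjusted p = 0.0151), from 101 ± 1.10 to 97.5 ± 0.953 TPM, and its call was lost with scaling by library size alone (adjusted p = 0.581), with an offset for effective length (0.199) and with limma on TPM (0.184).

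DSTYKwt in UN-SCC679 moved the 10 genes little. Of the 10, 2 rose and 3 fell, where 14.6% of all 13975 tested genes rose, 15.2% fell and 29.7% changed. None moved by 2-fold, whereas 2.54% of all genes were called and moved by at least 2-fold. The groups did not overlap in CPM (counts relative to library size after scaling) for 5 of the 10, against 46% of all genes. Egr1 rose from 88.8, 91.4 and 93.2 TPM to 118, 121 and 116 TPM, a log2 change of 0.35 ± 0.027 (SE, n = 3 per group, edgeR adjusted p = 1.62e-05). This was the widest gap of the 10 in these libraries. Fosl2 rose from 75.6, 82.1 and 85.3 TPM to 95.2, 93.5 and 93.8 TPM (0.18), and the first empty library was its lowest. Fosl1 (-0.11), Jun (-0.12) and Ier3 (-0.19) fell. Fos (0.081), Fosb (0.053), Junb (0.091), Myc (0.025) and Ier2 (0.12) were not called. In the same libraries the epithelial marker sum went from 1007 to 1045 TPM down to 821 to 862 TPM, and squamous markers were higher for 4 of 5 tested genes and lower for 1, and their part was not tested.

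Several of those small differences lost or gained their call when 1 library was left out. Without the first empty pLENTI6 library, which stood apart, 6 of the 10 genes were called in place of 5, and 4939 genes in all in place of 4153. Jun was then lost (-0.081, adjusted p = 0.06), as it was in 9 of 15 alternatives, 5 of them with 1 library left out (adjusted p of 0.06 to 0.169). Junb (0.14, adjusted p = 0.0186) and Ier2 (0.16, adjusted p = 0.0176) were gained. The ranges of Jun overlapped in TPM although not in CPM. Without the second DSTYKwt library only 2 of the 10 were called, and 3 without the first. Calls over all genes fell too, to 2876 and 2984 in place of 4153. Jun and Fosl1 were lost in both cases (edgeR adjusted p for Fosl1 = 0.058 and 0.0567) and Ier3 in the former (0.0563). Egr1 and Fosl2 kept their calls under each of the 15 alternatives tried, with log2 changes of 0.33 to 0.37 and 0.15 to 0.22.

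**Figure D2:**
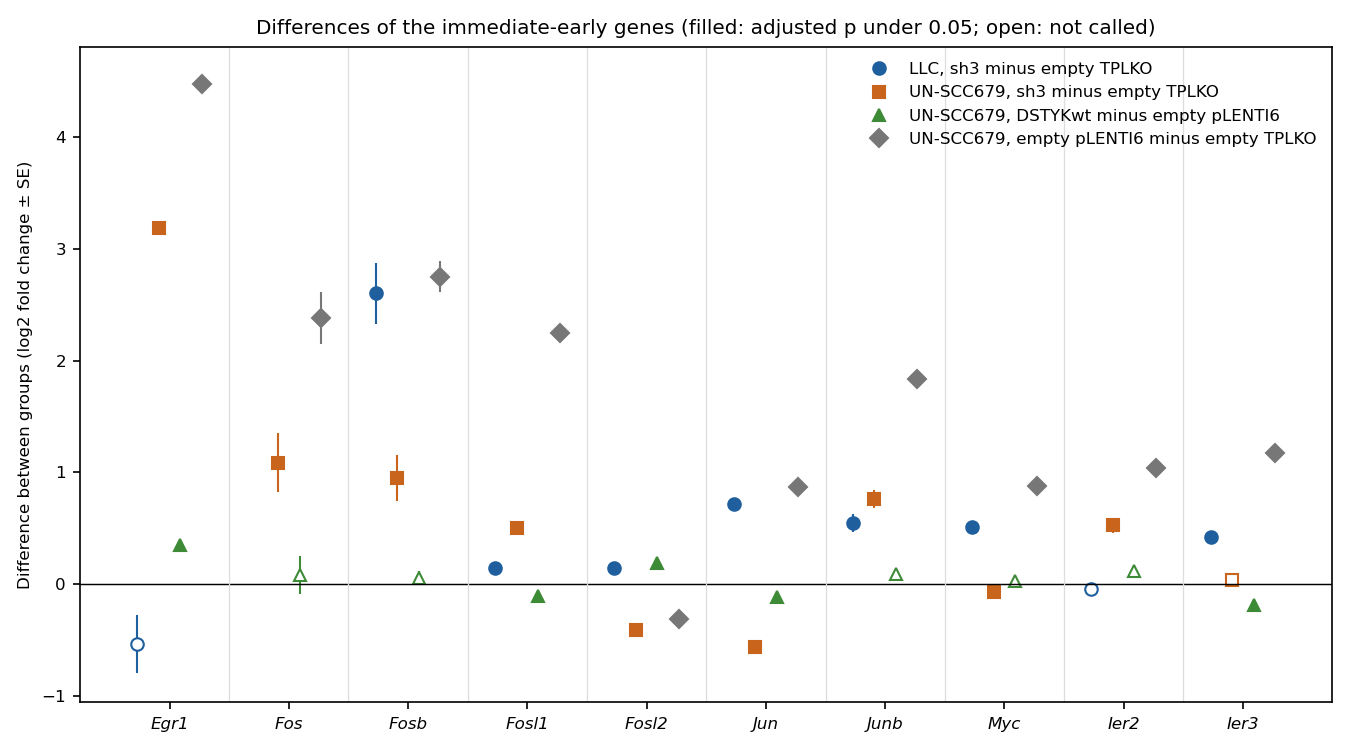
Log2 fold change of each gene with its standard error in 4 comparisons of 3 against 3 libraries, filled where the adjusted p was under 0.05. Egr1 shows the widest differences in UN-SCC679 and is open in LLC. Jun and Myc lie on opposite sides of 0 in the 2 knockdowns, Myc only just below 0 in UN-SCC679. The triangles of DSTYKwt stay near 0, and Fos has no LLC point because it was not tested there.

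Differences between the 2 knockdowns were tested as an interaction over 12 libraries, coded as the UN-SCC679 change minus the LLC change. It was called for 9 of the 10 genes, 4 higher and 5 lower, where 31.9% of all genes were higher, 28.1% lower and 60% called. The exception was Junb (0.22, adjusted p = 0.194), which rose in both lines, and without a filter on low counts it too was called (adjusted p = 0.0252). Of the 6 genes called in both knockdowns, 3 moved the same way (Fosb, Fosl1 and Junb) and 3 in opposite ways (Fosl2, Jun and Myc). The fall of Myc in UN-SCC679 was only 0.076 and lost its call in 3 of 15 alternatives. For Jun the difference was -1.27 ± 0.059 (SE, adjusted p = 2.21e-11) and for Egr1 it was 3.73 ± 0.203. For Fosb it was -1.65, the rise being larger in LLC. On limma's log2(TPM + 1) scale, which compresses low levels, the Fosb difference was -0.16 and not called (adjusted p = 0.265).

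Lowering and raising DSTYK in UN-SCC679 moved some genes the same way and others in opposite ways. Of the 4 genes called in both experiments, which share no library, Egr1 rose and Jun fell in both, and Fosl1 and Fosl2 went opposite ways. With DSTYKwt the call of Jun was lost in 9 of 15 alternatives and that of Fosl1 in 4 of 15, so Egr1 and Fosl2 are the firmer of the 4. The interaction, coded as the knockdown change minus the DSTYKwt change, was called for all 10 genes, 7 higher and 3 lower, where 26.1% of all genes were higher, 25.8% lower and 51.9% called. For Egr1 it was 2.84 ± 0.064 (SE, edgeR adjusted p = 1.55e-13). The smallest was that of Myc (-0.10), which was lost under 3 alternatives. The experiments differed in vector, in doxycycline and in the cell name given to their libraries, as well as in the direction of the DSTYK change. These cannot be told apart.

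The empty arms of UN-SCC679 showed how far these genes differed between vectors that carry no DSTYK construct. Dstyk itself was lower with empty pLENTI6 by a log2 difference of -0.26 (30.5 against 36.6 CPM, edgeR adjusted p = 4.65e-04), about the size of its rise with DSTYKwt. Between empty pLENTI6 and empty TPLKO, all 10 differed, 9 higher and 1 lower with pLENTI6, where 35.4% of all 14080 tested genes were higher, 33.3% lower and 68.7% called. The groups did not overlap for 10 of the 10, against 73.3% of all genes. Of the 10, 7 were called and differed by at least 2-fold, against 14.4% of all genes. The median log2 difference was 1.504 beside 0.01 for all genes. Egr1 stood at 3.98 ± 0.469 TPM with empty TPLKO and at 91.1 ± 2.20 TPM with empty pLENTI6 (SD, n = 3). Its log2 difference of 4.48 was a 22.3-fold one, wider than the 9.12-fold rise with sh3, which shares the empty TPLKO libraries. Fosb differed by 2.75, Fos by 2.38, Fosl1 by 2.25 and Junb by 1.84, and Ier3, Ier2, Myc and Jun by between 0.86 and 1.17. Fosl2 alone was lower (-0.32). The median log2 difference was 0.39 over chromosome 19, leaving 1.86 for Fosl1, and 0.34 over chromosome 17, leaving 0.84 for Ier3. Over chromosome 8, which holds Junb and Ier2, it was -0.15. The part of these chromosome-wide shifts was not tested. Vector, doxycycline and this difference in Dstyk cannot be told apart here. All 10 stayed called without the library that stood apart. Fibroblast markers summed to between 5235 and 5483 TPM in the TPLKO arm and between 1759 and 1889 TPM in the pLENTI6 arm, and their part in these differences was not tested.

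Across all 6 groups, the order of levels for Egr1 was DSTYKwt, empty pLENTI6, UN-SCC679 sh3, empty UN-SCC679 TPLKO, empty LLC and LLC sh3, with means of 118, 91.1, 36.2, 3.98, 0.650 and 0.452 TPM and no overlap between neighbours. For Fosl1 the order was LLC sh3 (93.4 TPM), empty LLC (84.2), empty pLENTI6 (70.4), DSTYKwt (66.1), UN-SCC679 sh3 (20.9) and empty UN-SCC679 TPLKO (15.7), again with no overlap between neighbours. For Myc, only DSTYKwt (181 TPM) and empty pLENTI6 (174 TPM) overlapped among neighbours. Jun overlapped between empty pLENTI6 and DSTYKwt, and between the empty TPLKO arms of the 2 lines. Junb overlapped between LLC sh3 and empty UN-SCC679 TPLKO and between the latter and empty LLC. Fos overlapped within LLC and within the pLENTI6 arms, Fosb within the pLENTI6 arms and between LLC sh3 and empty UN-SCC679 TPLKO, and Ier2 within LLC. Ier3 overlapped between empty LLC and empty pLENTI6, and between the TPLKO arms of UN-SCC679. Fosl2 overlapped between no neighbours.

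Because AP-1 is made of pairs, the share of each family's summed TPM describes which FOS and JUN transcripts a cell population held. In LLC, Fosl1 made up 72.8% ± 0.580 (SD, n = 3) of the FOS family with the empty vector and 72.3% ± 0.229 with sh3, so its share hardly moved. In UN-SCC679, Fosl2 made up 85.3% ± 0.821 with empty TPLKO and 75.9% ± 0.144 with sh3, and Fosl1 13.7% and 21.5%. With empty pLENTI6, Fosl1 and Fosl2 stood nearly level, at 44.5% and 51.1%, and with DSTYKwt at 39.4% and 56.2%. Fos and Fosb together never made up more than a small part, Fos 1.61% and Fosb 2.92% at their highest group means. The JUN genes were taken with Jund, the remaining family member. In UN-SCC679, Jun and Junb were near each other with empty TPLKO, at 39.1% ± 1.89 and 37.7% ± 0.610. They were apart with sh3, at 24.7% ± 1.28 and 59.5% ± 0.916. Jund fell from 23.2% to 15.8% of the family. Junb also led the family in the pLENTI6 arms, which carry no sh3. With empty pLENTI6, Junb held 57.4%, Jun 30.3% and Jund 12.3%, and with DSTYKwt 62.1%, 28.4% and 9.50%. In LLC Jun went from 39.3% to 43.1%, Junb from 33.2% to 32.6%, and Jund from 27.4% to 24.3% with no overlap between the groups. No test was made on shares.

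**Figure D3:**
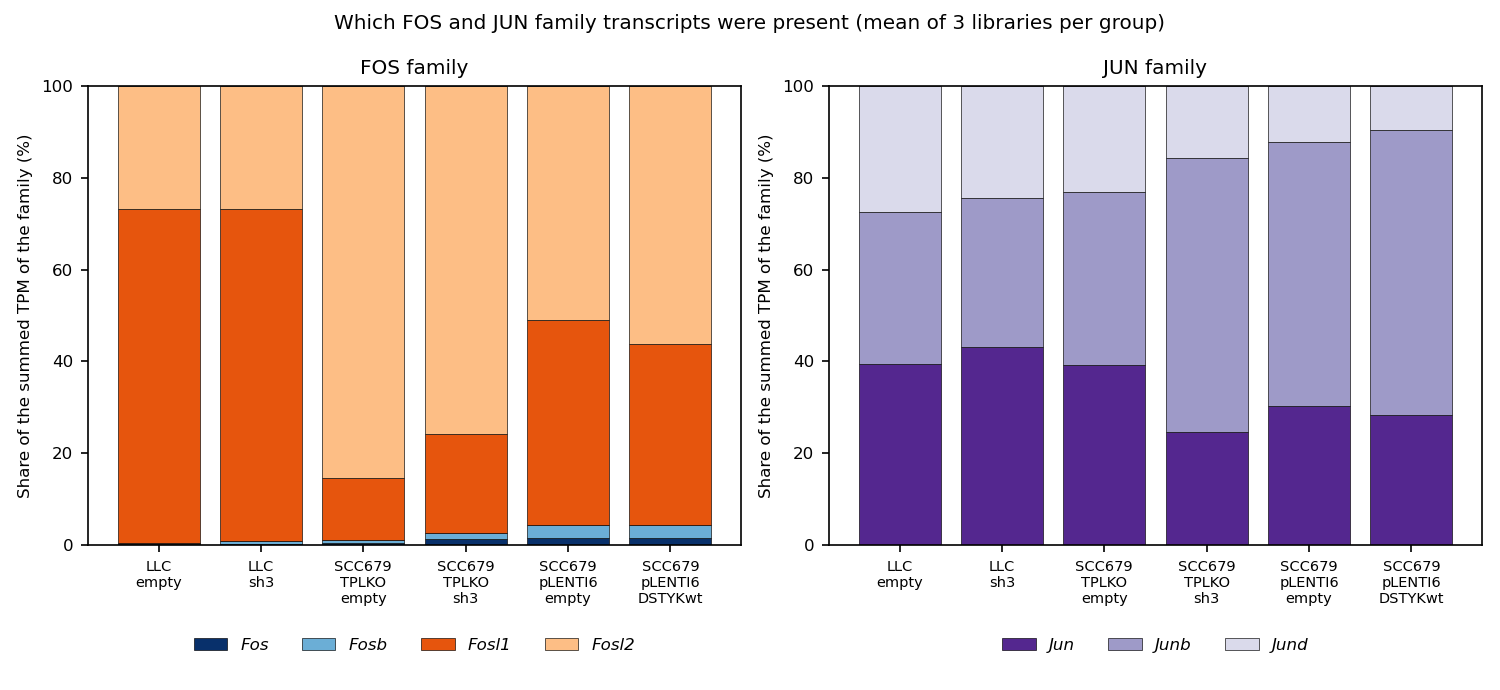
Share of each gene in the summed TPM of the FOS family (left) and of the JUN family with Jund (right), in percent, as the mean of 3 libraries in each of 6 groups. Fosl1 fills most of the FOS bar in LLC and Fosl2 most of it in UN-SCC679 with TPLKO. The Junb segment widens from 37.7% to 59.5% in the UN-SCC679 knockdown and is 57.4% with empty pLENTI6.

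The Myc gene gave several listed transcripts whose estimated shares differed between groups. Myc-201, Myc-202 and Myc-205 were classed as transcripts with the long first exon. This class held 37.2% ± 0.586 (SD, n = 3) of Myc counts in empty LLC. It held 43.2% ± 0.387 in UN-SCC679 with empty TPLKO and 85.7% ± 2.24 with empty pLENTI6. Transcripts without the first exon held 36.3%, 24.1% and 7.20% in the same groups. Myc-206, placed in neither class, held 26.5%, 32.7% and 7.05% there. It also has 3 exons and starts only slightly downstream of Myc-202, but ends earlier. How far the differences in share reflect use of the first exon was not tested. Within the experiments the shares moved less. Transcripts without the first exon held 30.8% with sh3 in LLC and 29.8% with sh3 in UN-SCC679, and 7.27% with DSTYKwt. These shares come from the estimate that splits reads among transcripts sharing most of their bases, and their uncertainty was not in the values used.

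Other genes on the opposite strand overlap 3 of the 10. Ccdc85b shares 1163 of the 2033 exonic bases of Fosl1, and its own level was between 6.04 and 15.9 TPM. Prdx2 (261 to 454 TPM) shares 173 of the 2301 exonic bases of Junb. Junos, which had no listed transcript of its own, shares 232 of the 3189 exonic bases of Jun. The library kit marks strand, but nothing in the sources used here states whether the counting used it, so Fosl1, Jun and Junb carry this uncertainty.

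Other immediate-early genes, a list of 42, moved in both directions in the knockdowns. In LLC, 17 of 40 tested rose and 13 fell, beside 36.2% and 36.4% of all genes. Ccn1, a matricellular protein gene and target of YAP and SRF, rose by 2.44 on the log2 scale and the nuclear receptor gene Nr4a1 by 1.51, whereas Id2 fell by 1.46 and Id1 by 1.24. In UN-SCC679, 16 of 41 rose and 16 fell, beside 31.8% and 32%. There Egr2, a paralogue of Egr1, rose by 4.002 and Arc by 3.61, and Ccn1 fell by 1.58 and Klf2 by 1.41. With DSTYKwt, 11 of 40 rose and 9 fell, beside 14.6% and 15.2%, with Klf4 at 1.002 and Egr2 at 0.82. Between the empty vectors, 28 of 40 were higher with pLENTI6 and 6 lower, beside 35.4% and 33.3% of all genes. Egr3 (3.70) and Egr2 (3.26) led them.

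Genes that answer to EGR1 or bind it moved in both directions. Of 9 in the list, 6 rose and 3 fell in the UN-SCC679 knockdown, beside 31.8% and 32% of all genes. Nab2, a corepressor that EGR1 induces and that restrains it, rose by 1.23, whereas the EGR1 target Pdgfb fell by 1.43. With DSTYKwt, 4 rose and 4 fell, beside 14.6% and 15.2%, with Nab2 at 0.24 and Pdgfb at -1.36. In LLC, where Egr1 was scarce and not called, 7 of 8 tested rose and 1 fell, beside 36.2% and 36.4%, with the tissue factor gene F3 at 0.95. Between the empty vectors 8 of 9 were higher with pLENTI6 and 1 lower, beside 35.4% and 33.3%, with a median log2 difference of 0.40.

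Genes induced by ERK, mostly its feedback inhibitors but also the ETS factor genes Etv4 and Etv5, were described for the cascade that feeds the immediate-early genes. In the UN-SCC679 knockdown 5 of 10 rose and 2 fell, beside 31.8% and 32% of all genes. Dusp6, a phosphatase of ERK, rose by 1.27 and Etv5 by 0.89, whereas Spry1 fell by 1.42. In LLC 6 of 10 rose and 2 fell, beside 36.2% and 36.4%, with Dusp4 at 1.42 and Dusp6 at 0.90. With DSTYKwt 1 of 10 rose and 5 fell, beside 14.6% and 15.2%, with Spry1 at -1.49. Between the empty vectors 9 of 10 were higher with pLENTI6, beside 35.4%, by 3.02 for Dusp5 and 2.03 for Dusp6. Of the 15 genes of the Ras to ERK cascade itself, 7 rose and 7 fell in LLC, 7 rose and 5 fell in the UN-SCC679 knockdown, and 2 fell with DSTYKwt. Of 14 genes of the JNK, p38 and ERK5 cascades, 6 rose and 7 fell in LLC, 5 rose and 4 fell in the UN-SCC679 knockdown, and 3 rose and 1 fell with DSTYKwt. The shares of all genes that rose and fell were 36.2% and 36.4%, 31.8% and 32%, and 14.6% and 15.2% in these 3 comparisons.

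Upstream, of 6 genes for SRF and its cofactors 3 rose and 2 fell in LLC, beside 36.2% and 36.4% of all genes. In the UN-SCC679 knockdown 3 rose and 1 fell, beside 31.8% and 32%. Srf rose by 0.40 in LLC and fell by 0.38 in the UN-SCC679 knockdown. Of the cytoskeletal targets of SRF and MRTF, 6 of 11 rose and 5 fell in LLC, beside 36.2% and 36.4% of all genes. In the UN-SCC679 knockdown 1 of 12 rose and 7 fell, beside 31.8% and 32%, with a median log2 change of -0.69. Acta2 rose in both knockdowns, by 1.78 and 1.86, while Tpm1 fell by 1.06 in UN-SCC679. With DSTYKwt 2 of 12 rose and 2 fell, beside 14.6% and 15.2% of all genes.

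AP-1 targets, mostly proteases and growth factors, rose in LLC for 15 of 21 tested genes and fell for 3, beside 36.2% and 36.4% of all genes, with a median log2 change of 0.45. Ptgs2, the inducible cyclooxygenase gene, rose by 2.41 and Mmp9 by 2.40. In UN-SCC679, 9 of 20 rose and 10 fell, beside 31.8% and 32%, over a wide range. Mmp9 rose by 4.43 and the EGFR ligand gene Areg by 3.28, whereas Itgb6 fell by 2.24. With DSTYKwt, 3 of 18 rose and 2 fell, near the 14.6% and 15.2% of all genes. Among the other AP-1 and small bZIP factors, the stress-induced Atf3 rose by 1.33 in LLC and fell by 1.45 in UN-SCC679. In that list 5 of 12 rose and 6 fell in LLC, and 3 of 12 rose and 7 fell in UN-SCC679.

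MYC targets fell in both knockdowns while Myc itself rose in LLC. The list holds 25 genes of nucleolar and ribosome assembly, nucleotide and polyamine synthesis and metabolism. In LLC 21 of the 25 fell and 3 rose, beside 36.4% and 36.2% of all genes, with a median log2 change of -0.39. Nme1 fell by 0.80 and the polyamine enzyme gene Odc1 by 0.72, while Rrp9 rose by 0.27. In UN-SCC679 24 of the 25 fell and 1 rose, beside 32% and 31.8%, with a median of -0.38. Rrp9 fell by 0.79 and Odc1 by 0.76, and Ldha rose by 0.10. With DSTYKwt 10 fell and 1 rose, beside 15.2% and 14.6%, the median being -0.077. At baseline, LLC, with the higher Myc level, had 20 of the 25 higher and 4 lower, beside 40.9% and 42%. Of the partners and antagonists of MYC, Mxi1, which competes for MAX, rose by 0.92 in LLC and by 1.03 in the UN-SCC679 knockdown, and Max fell by 0.31 and 0.19. In that list 8 of 13 rose and 5 fell in LLC, and 4 of 13 rose and 1 fell in UN-SCC679.

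**Figure D4:**
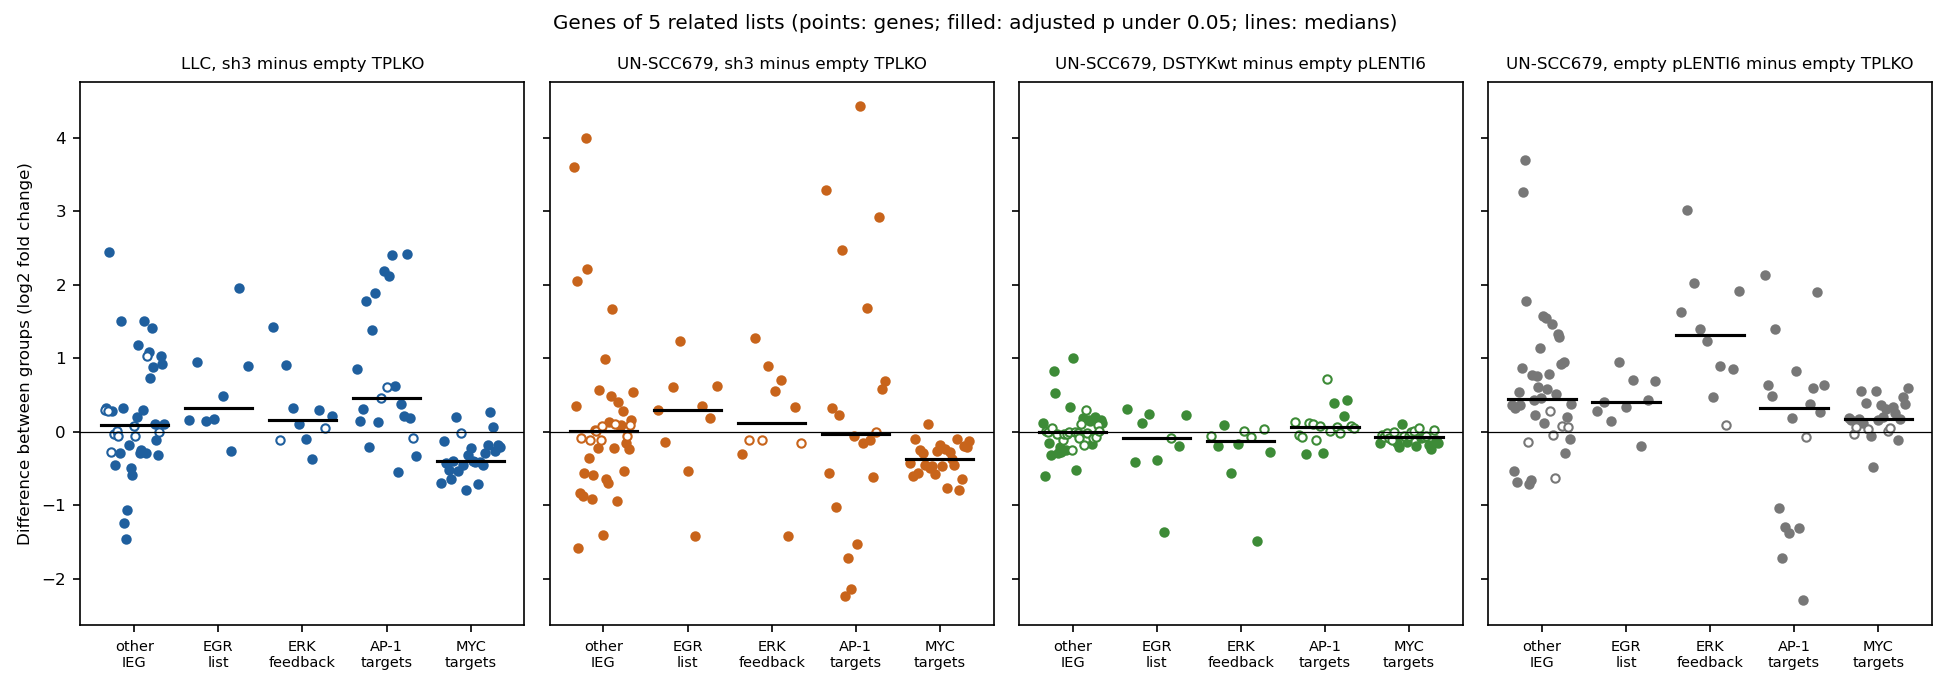
Log2 fold change of each tested gene of 5 related lists in 4 comparisons of 3 against 3 libraries, with a line at the median of a list and filled points where the adjusted p was under 0.05. The MYC targets lie mostly below 0 in both knockdowns (medians -0.39 and -0.38), and the genes of the ERK feedback list lie above 0 between the empty vectors (median 1.31).

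Heat shock genes, a sign of handling stress, were counted as well. Of 9 tested, 1 rose and 7 fell in the UN-SCC679 knockdown, beside 31.8% and 32% of all genes, and 6 were higher and 1 lower with empty pLENTI6 than with empty TPLKO, beside 35.4% and 33.3%. In LLC 2 of 8 rose and 4 fell, and 3 of 9 fell with DSTYKwt, where 72.6% and 29.7% of all genes changed. Their part in the changes of the immediate-early genes was not tested.

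The genes most like Egr1, Fosl1 and Myc were sought by Pearson's r of log2(TPM + 1) over the 6 group means, among 4684 genes with a mean of at least 5 TPM and a range of at least 1 on that scale. For Egr1 they were Nudt9 (r = 0.999), Crhr1, Id4, Paqr4 and Cemip (0.987). For Fosl1 they included Hmga2 (0.994), Rpl21, Kcnn4 and Synj2 (0.991). For Myc they were Rpl26 (0.998), Lyrm4, Fam49b, Ivns1abp and Ggta1 (0.996). Crhr1, a receptor gene for corticotropin-releasing hormone, followed Egr1 from 0 TPM in LLC to 1.35 TPM with empty TPLKO, 34.7 TPM with empty pLENTI6 and 60.7 TPM with DSTYKwt in UN-SCC679. The 6 points share line and vector, and these values are given as a description.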

How the data were processed

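Estimated counts per transcript were made by the authors with kallisto, and sleuth was also used, on the mouse build mm10, per the submitters' processing notes. Versions were not given in the sources used here. Libraries were stranded mRNA libraries read for 75 bases, per the labels' protocols. The deposited effective transcript lengths came with the counts, and the deposited TPM column was left aside.

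Of 118489 transcripts, 116816 were found in the mouse annotation GENCODE M21 (GRCm38), and the other 1673 held 0.515% to 0.593% of a library's counts and were left out. For each gene the counts were added up and rounded. TPM were computed from counts and effective lengths over the matched transcripts. Each comparison was fitted on all genes of its 6 libraries (12 for interactions) in R 4.3.3 with edgeR 4.0.16: TMM scaling, the default filter (minimum count 10, minimum total 15), the two-sided quasi-likelihood test and Benjamini-Hochberg adjustment, a call being an adjusted p under 0.05. Standard errors were derived from the F statistic. DESeq2 1.42.0, limma 3.58.1 on log2(TPM + 1), other scalings and filters, a fit over all 18 libraries, a replicate block and leaving out each library were the alternatives. The fit was tested on simulated data. Reads were not marked by molecule, so errors cover the spread between libraries only.

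Group and replicate were taken from sample titles. The coefficient of variation between libraries, from the common dispersion, was 2.65% to 4.56% over the comparisons. Named genes were Dstyk, the 10 members, the called genes with the 2 largest rises and 2 largest falls of each list and comparison (not all are named), and the 5 genes most like Egr1, Fosl1 and Myc. Of these, 3 genes are not reported here. The members and the lists were chosen with earlier results of these data known. Promoter windows are RefSeq's.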

Additional observations from a re-analysis of the deposited data

Results flagged for a closer look

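The change of a gene differed between the 2 knockdowns, by the interaction test over 12 libraries, for 9 of the 10 genes. Coded as the UN-SCC679 change minus the LLC change on the log2 scale, the differences were 3.73 for Egr1, 1.91 for Fos, -1.65 for Fosb, 0.37 for Fosl1, -0.55 for Fosl2, -1.27 for Jun, -0.58 for Myc, 0.57 for Ier2 and -0.38 for Ier3. The value for Fos rests on 30 and 18 counts summed over the LLC groups. Genes on chromosome 19, which holds Fosl1, had a median difference of 0.28, leaving 0.084 for Fosl1. On limma's log2(TPM + 1) scale the difference for Fosb was not called.

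The change also differed between knockdown and DSTYKwt in UN-SCC679 for all 10 genes. Coded as the knockdown change minus the DSTYKwt change, the differences were 2.84 for Egr1, 1.01 for Fos, 0.90 for Fosb, 0.62 for Fosl1, -0.59 for Fosl2, -0.44 for Jun, 0.67 for Junb, -0.099 for Myc, 0.41 for Ier2 and 0.23 for Ier3. The median difference was 0.35 over chromosome 19, leaving 0.27 for Fosl1, and 0.26 over chromosome 17, leaving -0.028 for Ier3, and the part of these chromosome-wide shifts was not tested.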

How the results depend on the processing

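Calls of the 10 genes in the knockdowns and between the empty vectors kept their direction under the scalings, filters and tools tried, except for the genes named with their values beside the results. Egr1 in LLC was also called in the fit over all 18 libraries (-0.54, adjusted p = 0.0134). With DSTYKwt, 3 of the 10 genes were called with DESeq2's Wald test and 2 with limma on log2(TPM + 1), against 5 in edgeR, and limma called 2637 genes in all against 4153. DESeq2 lost Fosl1 and Jun, and limma lost these and Ier3. In 2 cases a value that was not called changed sign: Ier2 in LLC without the third empty library (0.0060, the range over left-out libraries being -0.090 to 0.0060) and Fos with DSTYKwt without the second empty library (-0.098, the range being -0.098 to 0.19).

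Leaving out 1 library at a time, the genes called of the 10 numbered 7 to 8 in the LLC knockdown, 9 in every case in the UN-SCC679 knockdown, 2 to 6 with DSTYKwt, 8 to 10 at baseline and 10 in every case between the empty vectors. Over all genes the calls numbered 9650 to 9848, 8530 to 8828, 2876 to 4939, 11706 to 11841 and 9030 to 9669. The interactions gave 9 genes of the 10 in each case for the 2 knockdowns (8974 to 9045 genes in all) and 10 for knockdown against DSTYKwt (7277 to 7892).

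The replicate numbers did not steadily pair the libraries in UN-SCC679, where the correlation of deviations of same-numbered libraries was -0.134 to 0.072. Over both lines this correlation exceeded 0.1 for 1 pair of 9. With the replicate block, 7, 9 and 5 of the 10 genes were called in the LLC knockdown, the UN-SCC679 knockdown and with DSTYKwt, and 9925, 8806 and 3771 genes in all, and the block changed no call of a single gene among the 10. In LLC alone, each library correlated best with its own number (0.054 to 0.115, against at most -0.0054 for other numbers), so a weak pairing there remains possible. Depth limits Fos in both lines and Egr1 and Fosb in LLC, at the counts given above.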
